A study of Mus musculus with 2 samples.

Results

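The outer pericentral layer is the ring of hepatocytes that surrounds the innermost cells at the central vein of the liver lobule. Its members were chosen by measured values. Hepatocytes of both libraries were ranked together by a zonation score, the log2 of the summed UMIs (counted RNA molecules) of Cyp2e1, Oat, Glul and Gulo plus 1 over those of Cyp2f2, Hal, Sds and Aldh1b1 plus 1, and the layer took the cells above the 70th and up to the 90th percentile. It held 5339 of 26683 hepatocytes, 2116 of 16083 in the Tom- library and 3223 of 10600 in the Tom+ library. In the study, heterozygous male p16-Tom mice (p16-CreERT2 with R26-CAG-LSL-tdTomato-WPRE, on a C57BL/6 background) were given carbon tetrachloride (CCl4) for 4 weeks and tamoxifen. Every cell of both libraries came from such treated mice, and no untreated mice or mice without the reporter were measured here. Tamoxifen activates a Cre recombinase driven from the p16Ink4a locus, which switches on tdTomato permanently in cells that transcribe p16Ink4a at that time, so the label records past and not current transcription. Livers were fixed before dissociation, cells positive for a nuclear and a mitochondrial dye were sorted into tdTomato-negative (Tom-) and tdTomato-positive (Tom+) hepatocytes, and each sort gave 1 library. How many mice went into a library is not stated, so a difference between the 2 libraries has no replicate check and is one between these samples of cells, not between conditions.

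Hepatocytes divide their work along the axis from the portal tract to the central vein. Wnt ligands from the central vein endothelium switch on the pericentral programme, which covers cytochrome P450 drug metabolism, glutamine synthesis and bile acid synthesis, while ureagenesis and gluconeogenesis prevail near the portal tract. Cyp2e1 converts CCl4 into its toxic radical, so the pericentral cells are those that CCl4 injures. Genes such as Glul, Lgr5 and Axin2 need a strong Wnt signal and are highest in the cells nearest the vein. P450 genes such as Cyp2e1, Cyp1a2 and Cyp2c29 reach farther out into the lobule.

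The layer was compared with its neighbours on both sides. Cells above the 90th percentile, 2666 in number, are called inner cells, and cells from the 30th to the 70th percentile, 10667 in number, are called mid-lobular cells. All levels are CPM, the UMIs of a gene in the summed cells of a band scaled to 1000000 UMIs. Where 2 values stand side by side, the first is from the Tom- and the second from the Tom+ library. All intervals are 95% intervals that cover counting error only. The probe-based assay reads short targets, so levels of different genes cannot be compared, and closely related genes (the Cyp2c, Gst, Ces, Orm and Saa families) can share probes. Since the ranking itself separates these cells, every contrast between the layer and its neighbours is a description.

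The layer took 13.2% of the Tom- hepatocytes (interval 12.6 to 13.7) and 30.4% of the Tom+ hepatocytes (29.5 to 31.3). Tom+ cells made up 60.4% of its members, against 85.7% of the inner cells and 24.9% of the mid-lobular cells. Over all hepatocytes they were 10600 of 26683. The 2 sorts were separate libraries, so the part of Tom+ cells in a band depends on the cells each library yielded. It is not their part in the liver. The layer's share of each library depends on how the cells were ranked, and when each library was ranked on its own it was 20.0% and 20.0% by construction. The members of the 2 libraries had similar depth, with medians of 30240 and 30859 UMIs and 5559 and 5621 genes. Inner cells had medians of 34205 and 36215 UMIs. Mid-lobular cells of the Tom- library were shallower, at 16366 UMIs against 29004 in the Tom+ library, and a cell with few UMIs tends towards a score of 0, which lies in that band. The median score of the members was 3.36 in the Tom- and 3.58 in the Tom+ library. The Tom- members thinned out towards the vein, from 32.4% in the outermost to 17.1% in the innermost of 4 sub-bands of 5 percentiles, whereas the Tom+ members went from 20.1% to 30.3%.

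**Figure D1:**
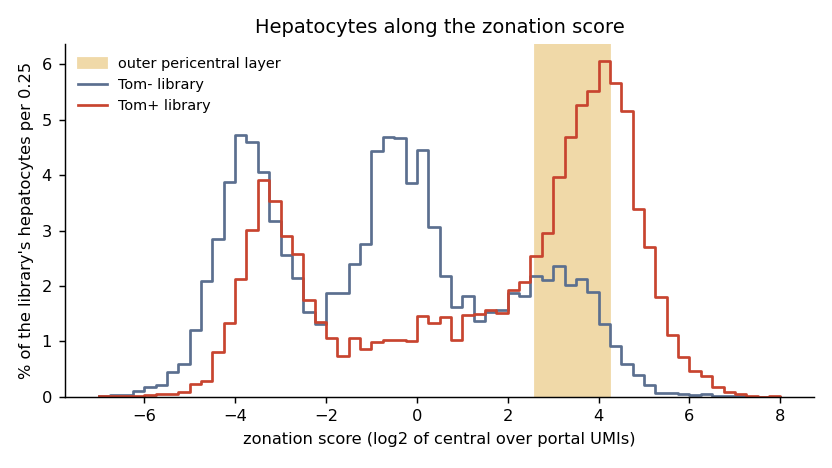
The percentage of each library's hepatocytes (y axis) is plotted per step of the zonation score (x axis, log2 of central over portal UMIs), with the outer pericentral layer shaded. The shaded range held 13.2% of Tom- and 30.4% of Tom+ hepatocytes, and the Tom- library has a further group of cells near a score of 0.

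The lower limit of the layer was a score of 2.60, where central UMIs plus 1 were 6.07 times the portal UMIs plus 1, and the upper limit was 4.26, a ratio of 19.2. The 255 cells in the percentile just below the lower limit had 2587 CPM of the 4 central and 416 CPM of the 4 portal genes together, and the 283 cells just above it had 2820 and 421 CPM. Around the upper limit the values were 4943 and 243 CPM just inside and 4967 and 226 CPM just outside. Of the genes outside the score, Cyp1a2 was at 467 CPM just below and 476 CPM just above the lower limit, and at 817 CPM just inside and 771 CPM just outside the upper limit. Cyp2c29 was at 5572 and 5937 CPM around the lower and at 8103 and 7766 CPM around the upper limit. Both limits are percentiles set by the rule, and the layer is a range of the score. Whether it is a separate cell type was not tested. Of all barcodes, 503 occurred in both libraries, and 9 were members in both.

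The label was checked with Cyp1a2 and Cyp2c29, the 2 named markers that are not in the score. Cyp1a2, a P450 enzyme of caffeine and aromatic amine metabolism (GRCm38 chr9:57676937-57683703, minus strand), was at 661 and 663 CPM in the layer, 291 and 348 CPM in mid-lobular cells and 902 and 1012 CPM in inner cells. Cyp2c29, a P450 enzyme that oxidises drugs and fatty acids (chr19:39269405-39330713, plus strand), was at 7351 and 6894 CPM in the layer, 3455 and 3494 CPM in mid-lobular cells and 8743 and 8205 CPM in inner cells. Both markers lay between the neighbours in both libraries, as the name of the layer says, and on the log2 scale they were nearer to the inner cells. The score of the layer was also nearer to that of the inner cells. The layer also carried traces of other cell types. The 9 macrophage markers summed to 295 and 243 CPM in the layer, 500 and 337 CPM in mid-lobular cells and 218 and 181 CPM in inner cells. The 8 endothelial markers summed to 92.9 and 76.2 CPM, the 8 stellate markers to 46.8 and 44.8 CPM, the 5 cholangiocyte markers to 3.19 and 3.25 CPM and the 5 lymphocyte markers to 0.958 and 0.765 CPM. Of these markers, Cftr alone was at 0 in the layer in both libraries, and the part of the other cell types in the results below was not tested.

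Against the mid-lobular cells, 108 of 7937 genes were at least 1.5-fold higher in the layer in both libraries (1.36%), and 109 were at least 1.5-fold lower (1.37%). Over all genes compared, the median log2 ratio was 0.05 in the Tom- and 0.07 in the Tom+ library. Against the inner cells the layer differed far less, with 16 of 7894 genes at least 1.5-fold higher (0.203%) and 11 lower (0.139%), and medians of 0.00 and -0.02. By the number of genes past the same fold, the members were nearer to the inner than to the mid-lobular cells. The bands were not evenly spaced in the score, with medians of 3.36 and 3.58 in the layer. The medians were 4.58 and 4.76 in inner cells and -0.19 and 0.65 in mid-lobular cells. The counts therefore cannot show which neighbour the members resemble more apart from this spacing. These counts moved with the ranking, the bands and the CPM minimum. With no CPM minimum, far more genes were lower than higher against mid-lobular cells. The inner sum of the Tom- library rested on 382 cells. With each library ranked on its own, 42 genes were higher and 57 lower than in mid-lobular cells, and 5 higher and 4 lower than in inner cells. With the score taken from thinned cells, 3 genes were higher and 5 lower than in inner cells, and without Glul in the score 4 were lower. Against mid-lobular cells of the 50th to 70th percentile, 49 genes were higher. Among the 109 genes lower than in mid-lobular cells were 5 of 7 endothelial and 3 of 6 macrophage markers compared, and with cells of at least 20000 UMIs in all bands 67 genes were lower.

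The pericentral P450 enzymes and their electron donors were the first group. Of 13 compared, 5 were higher in the layer than in mid-lobular cells and none lower, with median log2 ratios of 0.57 and 0.55, and none passed 1.5-fold against the inner cells (medians -0.17 and -0.20). The 5 were Cyp1a2, Cyp2c29, Cyp2a22, Cyp2c37 and Cyp2c50. Of all 7937 genes, 108 were higher than in mid-lobular cells by 1.5-fold (1.36%), and against inner cells 7867 of 7894 did not pass it. Cyp1a2 was 2.27-fold and 1.91-fold above mid-lobular cells, and Cyp2c29 2.13-fold and 1.97-fold. Por, the reductase that supplies P450 enzymes with electrons, stood at 543 and 534 CPM against 342 and 363 CPM in mid-lobular cells and 613 and 626 CPM in inner cells. Cyp3a11, a main drug-oxidising P450, stood at 7362 and 6613 CPM in the layer and 7820 and 6638 CPM in inner cells.

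How far the layer had come on the way inward was expressed as the part of the log2 difference between mid-lobular and inner cells that it had covered. For the 9 P450 and reductase genes whose difference exceeded 0.5 in both libraries, the layer had covered a median of 80.2% in the Tom- and 74.2% in the Tom+ library. For 9 Wnt targets it had covered 73.2% and 62.5%, and for 15 periportal genes 62.7% and 59.3%. The values overlap widely between the groups, since single Wnt targets ranged from 67.3% to 80.0% in the Tom- and from 48.7% to 70.9% in the Tom+ library.

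Other pericentral genes were similar. Of 8, 7 were higher than in mid-lobular cells and all 8 were below the inner cells in both libraries, none of them by 1.5-fold in both. Of all 7894 genes compared, 3134 were below the inner cells in both libraries. By 1.5-fold, 108 of 7937 genes were higher than in mid-lobular cells (1.36%). Csad, an enzyme of taurine synthesis, was at 3364 and 3325 CPM against 2020 and 2163 CPM, and at 3810 and 3709 CPM in inner cells. Lect2, a secreted hepatokine, was at 182 and 175 CPM, 73 and 85 CPM in mid-lobular cells rising to 248 and 264 CPM in inner cells. Serpina7, the thyroxine-binding globulin, was among the 8 genes highest against mid-lobular cells, at 381 and 380 CPM against 136 and 152 CPM, and had covered most of its rise, with 467 and 453 CPM in inner cells.

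Wnt targets of the innermost cells were raised in the layer but not to their inner level. All 9 compared were at least 1.5-fold above mid-lobular cells in both libraries (medians 1.47 and 1.19 on the log2 scale). Against the inner cells, 5 of 10 compared were lower by 1.5-fold and all 10 were lower in value, as were 3134 of all 7894 genes, with medians of -0.56 and -0.80. The 5 were Slc1a2, Rhbg, Axin2, Lhpp and Sp5. By 1.5-fold, 108 of 7937 genes were above mid-lobular cells (1.36%) and 11 of 7894 below inner cells (0.139%). Slc1a2 and Rhbg passed the fold in both libraries also without Glul in the score, with the score taken from thinned cells and with each library ranked on its own. Without Glul, Axin2 (log2 -0.55) and Sp5 (-0.50) fell short in the Tom- library. With thinned cells Axin2 (-0.49), Lhpp (-0.52) and Sp5 (-0.37) fell short there, and with each library ranked on its own Axin2 (-0.35) and Lhpp (-0.54) fell short in the Tom+ library.

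Slc1a2, a glutamate transporter (chr2:102658659-102790784, plus strand), was at 102 and 86.8 CPM in the layer, 21.6 and 31.6 CPM in mid-lobular cells and 180 and 251 CPM in inner cells. It was 4.72-fold and 2.75-fold above mid-lobular cells and 1.76-fold and 2.90-fold below inner cells. Its expression was uneven among the members. After each cell had been thinned to 5000 UMIs, 19.9% of Tom- members (interval 18.2 to 21.7) and 19.4% of Tom+ members (18.0 to 20.8) held a UMI of Slc1a2, against 32.7% and 39.5% of inner cells and 9.45% and 10.7% of mid-lobular cells. The cells at the portal end, up to the 10th percentile, gave 0.882% and 2.73%, with median depths of 34836 and 44950 UMIs before thinning, taken here as the background in cells that should lack the gene. Without thinning, the shares in the layer were 34.2% and 40.2%. Thinning left out 6 and 16 members with fewer UMIs.

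Rhbg, an ammonium transporter, was at 22.3 and 20.8 CPM against 39.8 and 50.5 CPM in inner cells. Axin2, a feedback inhibitor of Wnt signalling (chr11:108920349-108950783, plus strand), was at 121 and 101 CPM, between 34.0 and 38.9 CPM in mid-lobular cells and 185 and 176 CPM in inner cells. Lgr5, the receptor for R-spondin that strengthens the Wnt signal (chr10:115450311-115587780, minus strand), was at 32.1 and 27.7 CPM, 3.99-fold and 2.91-fold above mid-lobular cells and 1.42-fold and 1.74-fold below inner cells. Tbx3, a transcription factor, and Notum, a secreted enzyme that inactivates Wnt ligands, stood at 114 and 100 CPM and 160 and 138 CPM, each below the inner level of 151 and 140 CPM and 198 and 204 CPM. The ubiquitin ligases Rnf43 and Znrf3, which remove Wnt receptors, were at 69.8 and 71.9 CPM and 49.8 and 46.9 CPM, both between the neighbours.

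Outside the lists, Slc13a3, a carrier of dicarboxylates, and Vldlr, the very low density lipoprotein receptor, were among the genes lowest against the inner cells. Slc13a3 was at 98.7 and 93.9 CPM in the layer and 153 and 180 CPM in inner cells, and Vldlr at 8.41 and 7.34 CPM and 14.6 and 12.0 CPM. Trib2, a pseudokinase, was 1.86-fold and 2.14-fold lower than in inner cells, and Wisp2, a secreted matricellular protein, 1.66-fold and 1.58-fold lower. Slc1a5, a glutamine transporter, was at 185 and 178 CPM in the layer against 54.4 and 69.6 CPM in mid-lobular cells, and Cyp2c55, a further P450, at 65.0 and 65.8 CPM against 19.8 and 24.8 CPM. Scara5, a ferritin receptor, was 3.42-fold and 2.63-fold above mid-lobular cells, and Tenm3, a cell adhesion protein, 3.45-fold and 2.52-fold.

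**Figure D2:**
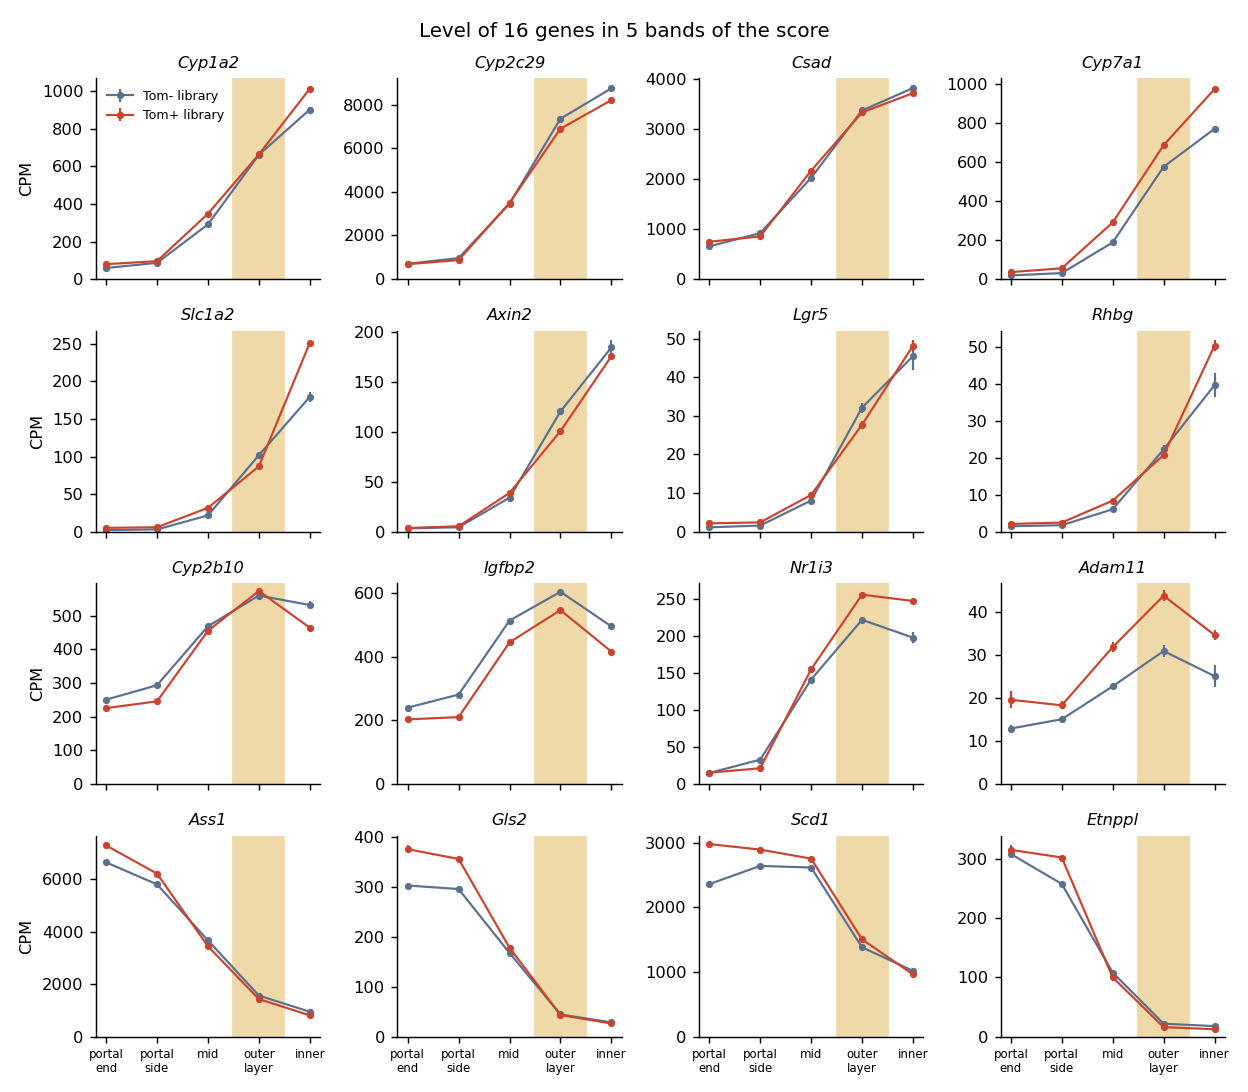
Levels in CPM (y axes, from 0) are shown for 16 genes in 5 bands of the score from the portal end to the inner cells (x axes), with a line for each library, vertical bars for the approximate 95% counting interval and the layer shaded. Cyp2c29 and Csad come close to their inner level in the layer, Slc1a2 and Rhbg climb further beyond it, Cyp2b10, Igfbp2, Nr1i3 and Adam11 are highest in it (each lost this in at least 1 library when the libraries were ranked on their own), and Ass1, Gls2, Scd1 and Etnppl drop towards it.

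Few genes were highest in the layer itself. A single gene of 7819 compared with both neighbours (0.0128%) was at least 1.2-fold above both in both libraries. This was Adam11, a catalytically inactive member of the ADAM protein family (chr11:102761439-102780262, plus strand), at 31.0 and 43.9 CPM in the layer, 22.8 and 31.9 CPM in mid-lobular cells and 25.2 and 34.7 CPM in inner cells. With each library ranked on its own no gene met this limit, and Adam11 was then no longer above inner cells in the Tom- library (log2 ratio -0.035) nor above mid-lobular cells in the Tom+ library (-0.081). Without a fold limit, 60 genes (0.767%) were above both neighbours in both libraries with intervals clear of 0, among them 6 of the 222 list genes compared (2.70%). The 6 were Cyp2b10, Nr1i3, Arnt, Igfbp2, Mlxipl and Gdf15.

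Nr1i3 encodes CAR, the nuclear receptor that senses drugs, and Cyp2b10 is its classical target gene. Nr1i3 (chr1:171213970-171220701, plus strand) was at 222 and 256 CPM in the layer, 141 and 155 CPM in mid-lobular cells and 198 and 247 CPM in inner cells. Cyp2b10 (chr7:25897620-25926624, plus strand) was at 560 and 574 CPM in the layer, 469 and 455 CPM in mid-lobular cells and 532 and 465 CPM in inner cells. For both genes the difference from inner cells was small, at log2 0.17 and 0.05 for Nr1i3 and 0.07 and 0.30 for Cyp2b10. The sign of the Nr1i3 difference turned in both libraries when the score was taken from thinned cells (-0.041 and -0.020). Igfbp2, a binding protein for insulin-like growth factors that the study used as a mid-lobular (zone 2) marker (chr1:72824503-72852474, plus strand), was at 605 and 547 CPM in the layer, 514 and 446 CPM in mid-lobular cells and 496 and 417 CPM in inner cells. It was 1.22-fold and 1.31-fold above inner cells and 1.18-fold and 1.23-fold above mid-lobular cells. Of the 4 genes compared in the mid-lobular list, 3 were below mid-lobular cells in value in both libraries (medians over the 4 -0.70 and -0.47), with Hamp, which encodes hepcidin, at 79.4 and 101 CPM against 134 and 130 CPM. With each library ranked on its own, Igfbp2 and Cyp2b10 were below the mid-lobular cells in the Tom+ library (log2 -0.17 and -0.15).

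Of the other xenobiotic receptors, Ahr, the dioxin receptor that drives Cyp1a2, was at 70.1 and 88.4 CPM, above mid-lobular cells at 42.3 and 54.7 CPM and below inner cells at 79.3 and 103 CPM. Nr1i2 (PXR) was nearly flat, with 180 and 194 CPM in the layer, 185 and 192 CPM in mid-lobular cells and 168 and 186 CPM in inner cells. In all, 2 of 6 receptors were higher than in mid-lobular cells by 1.5-fold, Nr1i3 and Ahr, against 108 of all 7937 genes (1.36%).

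Glutathione transferases of the mu class were graded. Of 17 genes of glutathione and conjugation compared, 3 were higher than in mid-lobular cells (Gstm1, Gstm2 and Gstm3) and 1 was lower than in inner cells (Gstm3). Gstm3 was at 351 and 438 CPM in the layer, 111 and 215 CPM in mid-lobular cells and 540 and 710 CPM in inner cells. Gclc, which makes the first step of glutathione synthesis, was at 228 and 229 CPM in the layer and 216 and 211 CPM in mid-lobular cells. Transferases of other classes went different ways, with Gsta3 at 2427 and 2934 CPM against 1605 and 1965 CPM, Gsta4 at 129 and 128 CPM against 130.1 and 129 CPM and Gstp1 at 602 and 695 CPM against 671 and 774 CPM. In heme synthesis, which supplies the P450 enzymes, Alas1, the rate-limiting enzyme, was at 734 and 840 CPM against 530 and 611 CPM in mid-lobular cells. Of these 11 genes only Blvrb, a biliverdin reductase, passed 1.5-fold, at 177 and 181 CPM against 105 and 120 CPM. Over all 7937 genes 108 were higher by that fold (1.36%). Against inner cells 11 of 7894 were lower by it (0.139%).

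In the bile acid list, 12 of 16 genes compared were above mid-lobular cells in value in both libraries and 3 below, against 5083 and 1749 of all 7937 genes. Cyp7a1, the rate-limiting enzyme of the classical pathway, was at 576 and 686 CPM in the layer, 188 and 291 CPM in mid-lobular cells and 770 and 974 CPM in inner cells. Cyp8b1, which steers the product towards cholic acid, ran the other way, at 34.7 and 49.4 CPM in the layer, 54.5 and 74.0 CPM in mid-lobular cells and 23.4 and 26.8 CPM in inner cells. Of 16 genes of bile acid synthesis and transport compared, Cyp7a1 alone passed 1.5-fold against mid-lobular cells in both libraries, and none did against inner cells. Over all 7937 genes 108 were higher (1.36%) and 109 lower (1.37%) than in mid-lobular cells by that fold. The uptake carrier Slco1b2 was 1.59-fold and 1.48-fold above mid-lobular cells, and the export pump Abcb11 was nearly flat at 782 and 729 CPM against 744 and 704 CPM.

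Lipid synthesis was mixed in the layer. Of 13 genes of fatty acid synthesis and storage, 2 were at least 1.5-fold below mid-lobular cells and none above, with medians of -0.17 and -0.16 against 0.05 and 0.07 over all genes compared. In value, 9 were lower and 3 higher in both libraries, against 1749 lower and 5083 higher of all 7937 genes. By 1.5-fold, 109 of the 7937 were lower (1.37%) and 108 higher (1.36%). Acly, which makes cytosolic acetyl-CoA, was at 205 and 212 CPM against 430 and 434 CPM, and Scd1, the stearoyl-CoA desaturase (chr19:44394455-44407879, minus strand), at 1381 and 1503 CPM against 2615 and 2752 CPM. Fasn, the fatty acid synthase, was 1.27-fold and 1.21-fold lower, and Dgat2, which completes triglycerides, was at 328 and 357 CPM against 326 and 354 CPM. Mlxipl, a transcription factor of lipid synthesis, was at 1334 and 1485 CPM against 1187 and 1288 CPM. None of 9 genes of fatty acid oxidation and ketogenesis passed 1.5-fold on either side (medians against mid-lobular cells 0.17 and 0.13), and none of 12 cholesterol genes did (medians -0.15 and -0.11).

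Periportal genes were low in the layer and lower still in inner cells. Of 18, 10 were at least 1.5-fold below mid-lobular cells (medians -0.69 and -0.66) and all 17 compared with inner cells were above them in value, 3 by 1.5-fold (medians 0.42 and 0.51). Of all 7894 genes, 2372 were above the inner cells in both libraries. By 1.5-fold, 109 of 7937 genes were below mid-lobular cells (1.37%) and 16 of 7894 above inner cells (0.203%). The 3 periportal genes past 1.5-fold against inner cells were Ass1, Arg1 and Gls2. Ass1, the argininosuccinate synthase of the urea cycle (chr2:31470207-31520672, plus strand), was at 1563 and 1429 CPM in the layer, 3667 and 3441 CPM in mid-lobular cells and 946 and 809 CPM in inner cells. Arg1, the arginase that releases urea, was at 649 and 781 CPM, 1211 and 1303 CPM and 381 and 446 CPM in the same order. Gls2, the liver glutaminase (chr10:128194457-128210004, plus strand), was at 44.4 and 43.3 CPM in the layer, 3.78-fold and 4.12-fold below mid-lobular cells. Etnppl, a phospholyase of ethanolamine phosphate, was 4.96-fold and 6.25-fold lower, at 21.8 and 16.0 CPM. Cdh1, the epithelial cadherin, was already at its inner level, with 9.67 and 8.69 CPM in the layer and 9.42 and 7.98 CPM in inner cells.

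Among genes outside the lists, those steepest against mid-lobular cells were Sdsl, a serine dehydratase relative, at 6.77 and 5.72 CPM against 31.8 and 30.8 CPM, Aspg, an asparaginase, at 79.2 and 84.2 CPM against 349 and 357 CPM, A1bg, a plasma glycoprotein, at 41.8 and 33.8 CPM against 165 and 163 CPM, and Mfsd2a, a transporter of lysophospholipids, at 11.8 and 8.91 CPM against 45.5 and 39.1 CPM. Aspg was also among the genes highest against inner cells, 2.39-fold and 3.29-fold. Ftcd, an enzyme of histidine breakdown, was 1.85-fold and 2.02-fold above inner cells, and Sult2a2, a sulfotransferase of bile acids and steroids, 2.17-fold and 2.15-fold. Sult2a2 was at 22.8 and 23.4 CPM in the layer, 32.1 and 34.2 CPM in mid-lobular cells and 10.5 and 10.9 CPM in inner cells, a larger step from the layer inward than from mid-lobular cells to the layer. Ptgds, a prostaglandin D synthase, was at 108 and 83.2 CPM in the layer and 66.0 and 47.2 CPM in inner cells. Obp2a, Myo15b and Tsen54 were between 4.01-fold and 4.87-fold below mid-lobular cells. Wsb1 and Rasgef1b were between 1.68-fold and 1.98-fold above inner cells.

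**Figure D3:**
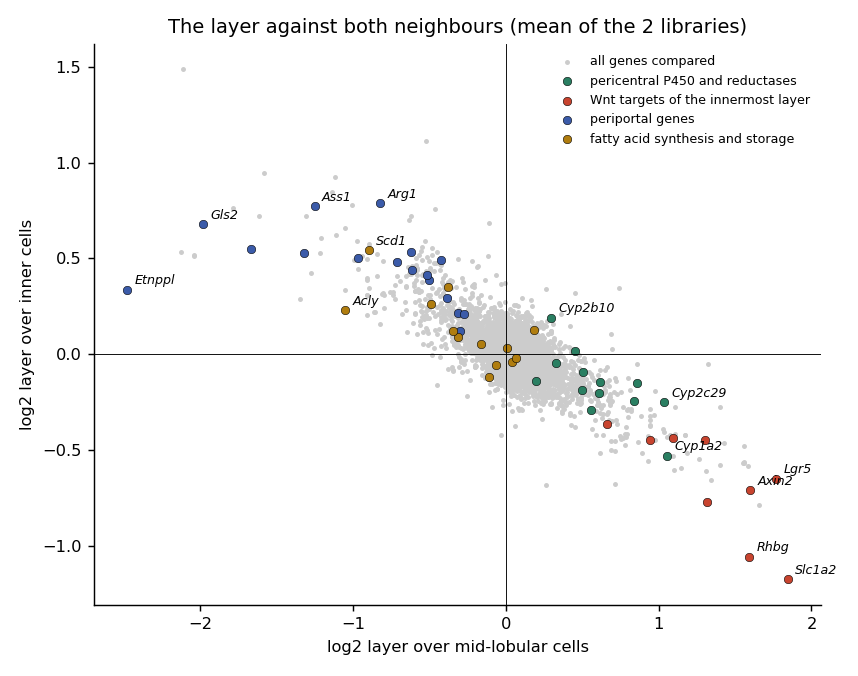
Each point is a gene, with the log2 ratio of the layer over mid-lobular cells on the x axis and over inner cells on the y axis, both as the mean of the 2 libraries, and 4 lists in colour. Wnt targets lie to the lower right (up to 4.72-fold above mid-lobular cells for Slc1a2 in the Tom- library), P450 genes nearer to the horizontal line, and periportal genes to the upper left.

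For the counts that follow, the shares over all genes at 1.5-fold were 108 of 7937 higher (1.36%) and 109 lower (1.37%) than in mid-lobular cells. Against inner cells 16 of 7894 were higher (0.203%). Of the 7 genes of the study's qPCR panel compared with mid-lobular cells, 4 were higher, namely Cd63, Cdkn1c, Gstm1 and Gstm3, and this panel was chosen with these samples in view. Cd63, a tetraspanin of exosomes, was at 61.7 and 90.5 CPM in the layer against 30.0 and 50.4 CPM. Of 4 mid-lobular genes compared with mid-lobular cells, Hamp2, a relative of hepcidin, was lower. Hypoxia targets had 2 of 8 genes higher than in mid-lobular cells, Egln3 at 29.5 and 30.6 CPM against 18.5 and 20.4 CPM and Ndrg1 at 34.0 and 32.3 CPM against 16.8 and 17.1 CPM, while Vegfa was flat at 166 and 169 CPM against 164 and 166 CPM. Among 14 CDK inhibitors and p53 targets, Cdkn1c, which encodes p57, was the only one past 1.5-fold, at 74.2 and 68.2 CPM against 27.5 and 31.9 CPM, with 99.2 and 109 CPM in inner cells. Cdkn1a, which encodes p21, was at 97.2 and 91.0 CPM in the layer, 106 and 92.8 CPM in mid-lobular cells and 85.7 and 78.0 CPM in inner cells. No gene passed 1.5-fold in both libraries among 12 of endoplasmic reticulum stress or 9 of the interferon response against mid-lobular cells. Of 9 acute phase proteins Orm1 was lower than in mid-lobular cells, at 845 and 842 CPM against 1319 and 1264 CPM, and Saa2 was higher than in inner cells, at 45.8 and 65.7 CPM against 25.2 and 41.8 CPM. Of 8 immediate early genes Egr1 alone passed the limit against mid-lobular cells, at 112 and 100 CPM against 63.8 and 65.4 CPM.

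Within the layer the gradients went on. The layer was divided into 4 sub-bands of 5 percentiles, with 361 to 976 cells each. All 9 Wnt targets compared stood higher at each of the 3 steps towards the vein in both libraries, against 14.6% and 14.6% of all 7937 genes, and their median log2 ratio of the innermost over the outermost sub-band was 1.04 and 1.03. Slc1a2 had the values 42.5, 90.8, 121 and 196 CPM in the Tom- library and 39.2, 56.0, 88.0 and 135 CPM in the Tom+ library. Axin2 had 77.9, 111, 146 and 174 CPM and then 62.4, 79.6, 106 and 134 CPM. The innermost Tom- sub-band was thus no lower in Slc1a2 than the Tom- inner cells (180 CPM) and slightly lower in Axin2 (185 CPM). The innermost Tom+ sub-band was lower than the Tom+ inner cells in both genes (251 CPM of Slc1a2 and 176 CPM of Axin2).

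P450 genes were shallower as a list, with median log2 ratios of 0.23 and 0.20 over 13 genes. Of the 13, 8 and 9 stood higher at every step, against 14.6% and 14.6% of all genes, and 2 and 0 stood lower. Cyp1a2 went from 528 to 832 CPM in the Tom- and from 500 to 785 CPM in the Tom+ library, and Cyp2c29 from 6385 to 8356 CPM and from 5855 to 7526 CPM. Cyp3a11 was higher at each step in the Tom- library, at 6907, 7411, 7616 and 7726 CPM (log2 0.16 from the outermost to the innermost), and stayed between 6388 and 6732 CPM in the Tom+ sub-bands. Cyp2b10 and Igfbp2 ran against the axis, with log2 ratios of -0.24 and -0.25 for Cyp2b10 and -0.41 and -0.19 for Igfbp2 from the outermost to the innermost sub-band. Of 18 periportal genes, 14 and 15 were lower at every step, against 8.98% and 7.58% of all genes. Ass1 was at 1963, 1608, 1322 and 1135 CPM in the Tom- library and 1915, 1575, 1343 and 1117 CPM in the Tom+ library.

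**Figure D4:**
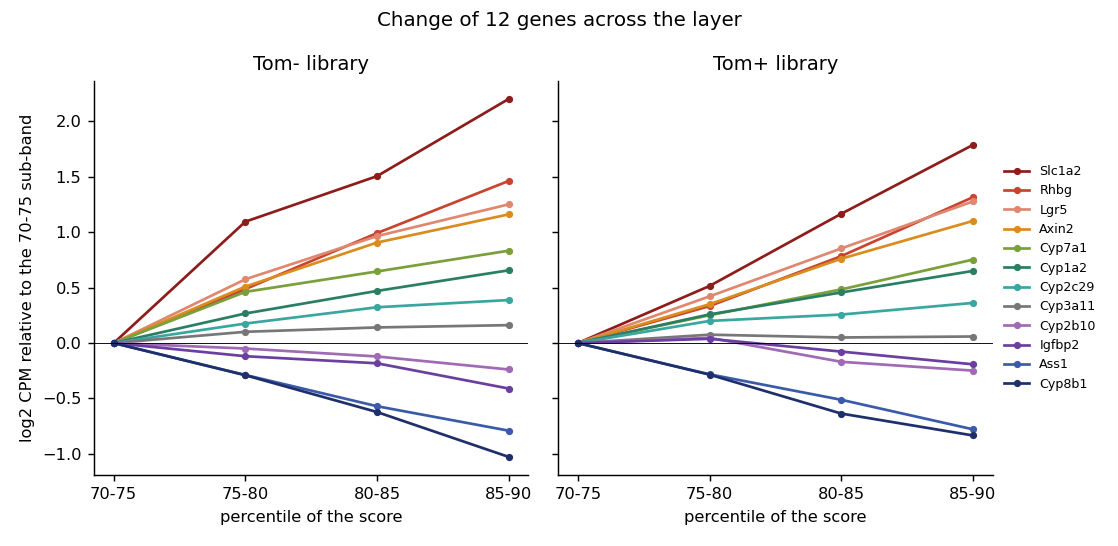
The log2 CPM of 12 genes relative to the outermost sub-band (y axis) is drawn over the 4 sub-bands of the score's percentiles (x axis), with a panel for each library. Slc1a2 ends at 2.20 and 1.79, Cyp3a11 ends at 0.16 and 0.059, and Ass1 ends at -0.79 and -0.78.

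The 2 libraries were then compared within the layer, the question being what tells Tom+ from Tom- cells within 1 range of the score. The range does not match their positions, since the median score was 3.36 in Tom- and 3.58 in Tom+ members and the innermost sub-band held 17.1% and 30.3% of them, so each ratio over the whole layer mixes position with label. The reporter was read first, since it defines the sort. The labels give 3 pairs of designed probes for it. The sequences are shown, as the labels print them, because the reporter values rest on these pairs.
tdTomato-1, first probe: tacaggaacaggtggtggcggccct
tdTomato-1, second probe: tttacggatgtcaacgtcacac
tdTomato-2, first probe: aacacagtgcacaccacgccacgtt
tdTomato-2, second probe: gcctgacaacgggccacaactcctc
tdTomato-3, first probe: aggacgtcccgcgcagaatccaggt
tdTomato-3, second probe: ggcaacacaggcgagcagccaagga

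The second probe of tdTomato-1 has 22 bases and the other 5 probes 25, and it alone matched the reference's mouse transcripts, as its reverse complement lies in those of Actb, the cytoskeletal actin. Whether it was printed correctly, and what this pair adds to the reporter values, was not tested. tdTomato was at 103 CPM in the Tom- members (7181 UMIs) and 892 CPM in the Tom+ members (101396 UMIs), an 8.68-fold difference (log2 3.12, interval 3.08 to 3.15). At 5000 UMIs per cell, 38.8% of Tom- members (36.7 to 40.9) and 95.6% of Tom+ members (94.8 to 96.3) held a UMI of it, and 88.3% and 99.8% did so without thinning. No cells without the reporter gene were measured, so the share that background gives is not known. At the portal end of the Tom- library the thinned share was 27.8% and the level 60.9 CPM, below those of the Tom- members. In the Tom+ library the layer stood above mid-lobular cells (692 CPM) and below inner cells (958 CPM).

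Apart from the reporter, the libraries were close. Among 7897 genes compared, 15 were at least 1.5-fold higher in the Tom+ members (0.19%) and 3 lower (0.038%), and the median log2 ratio was 0.02. With the 4 sub-bands weighted equally, 18 genes were higher and 3 lower. This evens out the sub-band shares but not the position within a sub-band. The count depends on ranking the cells by one common score. With each library ranked on its own, where the Tom+ band lies nearer to the vein, 157 genes were higher and 162 lower. None of the counts has a replicate check.

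Clock genes held the largest difference among the genes compared. Dbp, a transcription factor at the output of the circadian clock (chr7:45705088-45710203, plus strand), was at 6.52 CPM in Tom- and 23.0 CPM in Tom+ members, 3.52-fold higher (log2 1.82, interval 1.67 to 1.96). Per3, a period gene of the clock's negative limb, was at 10.5 and 21.5 CPM, 2.06-fold higher. These were the only 2 of 10 clock repressors and outputs past 1.5-fold, against 15 higher and 3 lower of all 7897 genes. Per2 was at 14.8 and 21.8 CPM and Tef at 59.9 and 84.2 CPM, whereas Nr1d1 was at 122 and 121 CPM and Per1 at 132 and 121 CPM. Of the clock activators, Arntl was at 8.90 and 9.90 CPM, under the minimum level of 10 CPM. The 3 activators compared were all lower in Tom+ members in value (median log2 ratio -0.09), as were 3478 of all 7897 genes. Dbp showed no steady course along the layer, at 5.77 to 6.99 CPM over the Tom- and 21.2 to 25.0 CPM over the Tom+ sub-bands. Without the 10% of hepatocytes with the highest share of Dbp and Per3 UMIs, which selects on these genes themselves, the log2 ratio of Dbp was 0.41 and that of Per3 0.37.

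Of 8 immediate early genes compared, 1 was at least 1.5-fold lower in the Tom+ members and none higher, against 3 lower and 15 higher of all 7897 genes. Fos, a subunit of the AP-1 transcription factor (chr12:85473890-85477273, plus strand), was at 27.5 and 13.2 CPM, the lowest ratio of all genes counted (log2 -1.06, interval -1.16 to -0.96). In value, 6 of the 8 were lower, as were 3478 of all 7897 genes, with Jun at 79.1 and 73.1 CPM and Egr1 at 112 and 100 CPM. Myc, at 16.6 and 20.3 CPM, and Klf6, at 18.4 and 20.9 CPM, were higher in value in Tom+ members. Fosb, at 1.53 and 0.440 CPM (107 and 50 UMIs), was under the 10 CPM minimum. Hsd17b6, an enzyme of androgen and retinol metabolism, was at 12.1 and 6.22 CPM, and Cd163, a scavenger receptor of macrophages and no hepatocyte gene, at 16.9 and 10.8 CPM. The summed macrophage markers were also lower in the Tom+ members, at 243 against 295 CPM.

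The other genes highest in Tom+ members by the naming rule were Selenbp2, a selenium-binding protein, at 7.08 and 14.7 CPM, Mfge8, a secreted opsonin, at 9.33 and 17.4 CPM, Nat8, an acetyltransferase, at 6.57 and 11.4 CPM, Ppp1r9a, a scaffold of protein phosphatase, at 8.95 and 14.9 CPM, Ptma, a small nuclear protein, at 30.5 and 49.5 CPM and Ces2c, a carboxylesterase, at 27.5 and 44.9 CPM. The neighbours held differences of the same sign. In mid-lobular and inner cells the Tom+ over Tom- log2 ratios were 1.16 and 2.30 for Dbp, 0.64 and 1.31 for Per3, -0.74 and -1.54 for Fos, -0.72 and -1.01 for Hsd17b6, 1.01 and 0.93 for Ces2c and 0.68 and 0.81 for Nat8. Dbp was at 4.96 and 24.4 CPM in inner cells, and Fos at 52.3 and 18.0 CPM there and at 25.4 and 9.64 CPM at the portal end. The 7 further genes counted as higher included the mitochondrial mt-Co1, at 612 and 1064 CPM, and the median mitochondrial share of UMIs was 1.35% in Tom- and 1.52% in Tom+ members.

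P450 genes and Wnt targets differed by less than 1.5-fold between the libraries over the whole layer, as did 7879 of all 7897 genes. None of 13 P450 and reductase genes passed 1.5-fold (median log2 ratio -0.02), with Cyp1a2 at 0.00 (interval -0.01 to 0.02) and Cyp2c29 at -0.09. None of 9 Wnt targets passed it either (median -0.19). In value, 8 of the 9 were lower in Tom+ members, as were 3478 of all 7897 genes, and Rnf43 was higher, with Axin2 at -0.26 (interval -0.30 to -0.22) and Slc1a2 at -0.23 (-0.27 to -0.19). With the 4 sub-bands weighted equally, Axin2 was at -0.41, Slc1a2 at -0.50, Lgr5 at -0.39, Rhbg at -0.30, Cyp2c29 at -0.14 and Cyp1a2 at -0.086, all lower than over the whole layer, and Rnf43 was at -0.045. In the sub-band values given above, Slc1a2 and Axin2 were lower in Tom+ than in Tom- members in each of the 4 sub-bands, with Slc1a2 at 90.8 and 56.0 CPM in the second. The direction was not stable to the ranking. With the score taken from cells thinned to 5000 UMIs, Slc1a2 (0.20), Rhbg (0.30), Lgr5 (0.053), Lhpp (0.076) and Znrf3 (0.032) were higher in Tom+ members. With each library ranked on its own, Slc1a2 was at 2.45 and Axin2 at 1.41. The Tom+ band then lies nearer to the vein than the Tom- band, so those ratios cannot show whether the direction is stable.

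A further list held genes taken from the qPCR panel of the study, which was chosen with these samples in view, so its direction is no independent evidence. Of its 8 genes compared, none passed 1.5-fold and 7 were higher in Tom+ members in value (median 0.32), against 4419 of 7897 and a median of 0.02 over all genes. Of all 7897 genes, 7879 did not pass 1.5-fold. Cd63 was at 61.7 and 90.5 CPM (log2 0.55), Anxa2, an annexin, at 7.62 and 10.9 CPM (0.51), Gstm1 at 373 and 497 CPM (0.41) and Gstm3 at 351 and 438 CPM (0.32). Cdkn1c was the gene lower in Tom+ members, at 74.2 and 68.2 CPM. Wee1, a kinase that delays mitosis, was at 4.02 and 6.73 CPM (281 and 765 UMIs), under the minimum level. Gpx3, also under it, was lower in Tom+ members, at 6.12 and 5.47 CPM (428 and 622 UMIs).

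The LIFR ligands were sparse. Clcf1, a cytokine of the family, was at 2.80 CPM (196 UMIs) and 4.94 CPM (562 UMIs), a log2 ratio of 0.82 (interval 0.58 to 1.06). Ctf1, cardiotrophin 1, was at 8.38 and 8.52 CPM, a ratio of 0.02 (-0.13 to 0.17). Lif, leukemia inhibitory factor, was at 0.0572 CPM (4 UMIs, interval 0.0156 to 0.146) and 0.414 CPM (47 UMIs, 0.304 to 0.550), a ratio of 2.85 (1.40 to 4.79), the largest of the 3 and the one with the fewest UMIs. These 3 ligands were under the minimum level of 10 CPM. Cntf, a further ligand under that level, was lower in Tom+ members in value, at 8.21 and 7.57 CPM (574 and 860 UMIs). The receptor Lifr was at 1119 and 1055 CPM and its partner Il6st at 89.1 and 104 CPM. Cdkn2a, from which p16Ink4a is transcribed, had 16 UMIs in Tom- and 24 in Tom+ members (0.229 and 0.211 CPM), and its log2 ratio of -0.12 had an interval from -1.09 to 0.89, so no difference was detectable at this depth. Whether these UMIs come from the p16Ink4a transcript, from the other transcript of the locus or from both was not tested. A custom feature of the assay named for p16 had 33 UMIs in Tom- and 57 in Tom+ members (0.472 and 0.502 CPM), with a log2 ratio of 0.087 and an interval from -0.56 to 0.75, so no difference was detectable there either. Cdkn1a was at 97.2 and 91.0 CPM, and none of 14 CDK inhibitors and p53 targets passed 1.5-fold (median -0.05), nor did 7879 of all 7897 genes.

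Among metabolic lists none held a gene past 1.5-fold, a limit that 7879 of all 7897 genes did not pass either. All 13 compared genes of fatty acid synthesis and storage were higher in Tom+ members in value, against 4419 of all 7897 genes, with a median of 0.12, and the 12 cholesterol genes had a median of 0.11, led by Lss, the lanosterol synthase, at 37.0 and 52.9 CPM (log2 0.52). Cyp7a1 was at 576 and 686 CPM (0.25) and Cyp8b1 at 34.7 and 49.4 CPM (0.51). The fetal gene Afp, which encodes alpha-fetoprotein, was at 2.00 and 3.98 CPM (140 and 452 UMIs) and Gpc3, a glypican, at 0.215 and 0.757 CPM (15 and 86 UMIs), both under the minimum level. Cell cycle genes were scarce in the layer, with Mki67, a marker of dividing cells, at 1.36 and 1.18 CPM against 2.99 and 3.47 CPM in mid-lobular cells. Mcm2, a part of the replicative helicase, was at 3.25 and 3.14 CPM against 2.83 and 2.80 CPM. Pcna, the sliding clamp of DNA replication and the only cell cycle gene above the minimum level, was at 26.7 and 26.5 CPM against 25.6 and 25.6 CPM.

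**Figure D5:**
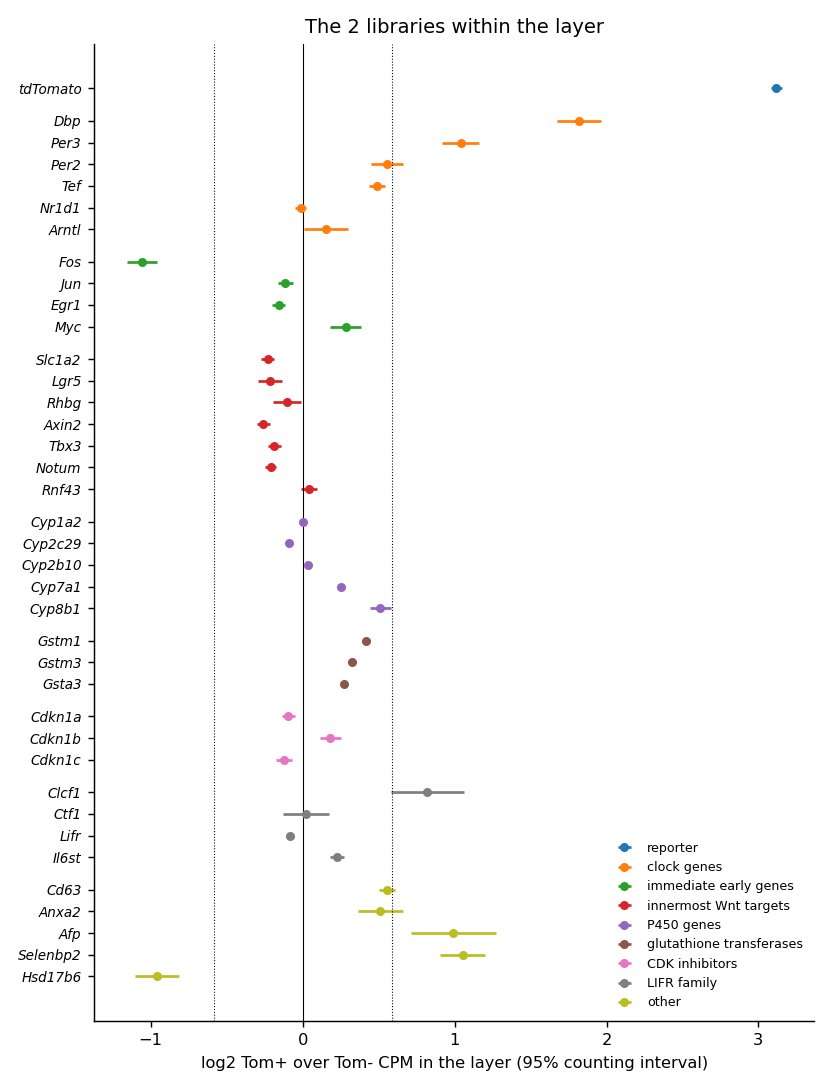
Points give the log2 ratio of Tom+ over Tom- CPM within the layer (x axis) for 38 features in 9 groups, with 95% counting intervals and dotted lines at 1.5-fold. The reporter (3.12), Dbp (1.82), Selenbp2 (1.05), Per3 (1.04), Hsd17b6 (-0.96) and Fos (-1.06) are past the dotted lines by more than their intervals, while Cyp1a2, Cyp2c29 and the Wnt targets lie between them. Afp, under the minimum level of 10 CPM, is past its line by more than its interval too.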

How the data were processed

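The authors hybridised probe pairs to the RNA of fixed, sorted cells (10x Flex) and, per the labels, counted UMIs with Cell Ranger 7.2.0 on mm10. The deposited count matrices give unnormalised UMIs for 19073 features, 3 of them custom, in each cell. Other deposited columns hold names only.

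Hepatocytes had 2000 to 10000 genes, at most 100000 UMIs, at most 5% mitochondrial UMIs and at most 2 UMIs of Ptprc, Pecam1 and Dcn together. Doublets were not called, and a limit of 60000 UMIs was an alternative. The rule, lists and comparisons were chosen with earlier results of these data known, and 1 of the 16 alternatives (cells of at least 20000 UMIs) after seeing the data.

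UMIs were summed per band and library. Ratios have exact conditional intervals, shares Clopper-Pearson intervals and sums Poisson intervals, at 95%. A group had 1 library, so nothing was tested and no p-value is given. Member sums were 69909592 (Tom-) and 113658990 (Tom+) UMIs. Genes were compared at 10 CPM or more in either of the 2 sums (libraries pooled against neighbours) and at least 20 UMIs (in each library, against neighbours), leaving out the score, filter and custom features. The log2 ratios behind the 1.5-fold counts had 0.5 UMIs added to each sum, and the counting was tested on simulated data. Named genes are the 8 highest and 8 lowest of each comparison, without marker lists of other cells, the 8 most above both neighbours and up to 4 leading or defining genes of a list. Further list genes, mt-Co1, Cd163 and the opposed genes of the closing section were named after their values were seen. Cells were thinned to 5000 UMIs for shares of cells. Positions are from GENCODE vM21 (Python 3.11.15, numpy 2.4.6, scipy 1.17.1). Some list genes are not reported here.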

Additional observations from a re-analysis of the deposited data

Results flagged for a closer look

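3 interferon-linked genes, a receptor and a clock gene, named after their values were seen, ran in opposite directions in the libraries. None of these differences was tested. Many genes lacked a common direction. Against inner cells 2372 of 7894 genes were higher and 3134 lower in both libraries, and against mid-lobular cells 5083 and 1749 of 7937. Between the layer and the inner cells, Rsad2, an antiviral radical SAM enzyme, had log2 ratios of -1.10 in the Tom- and 0.78 in the Tom+ library. Ifit3, an interferon-induced protein, had -0.74 and 0.30, and Ddx60, an antiviral helicase, had -0.26 and 0.29. Neo1, the receptor neogenin, went the other way, with 0.35 and -0.30. Between the layer and mid-lobular cells, Dbp had -0.30 in the Tom- and 0.36 in the Tom+ library. The Tom- inner sum of the ratios to inner cells came from 382 cells.

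A custom feature outside the gene comparisons, L1Md_A, which reads a family of LINE-1 retrotransposons, was at 3145 CPM in Tom- and 3669 CPM in Tom+ members, a log2 ratio of 0.22. It reads many genomic copies at once, and with 1 library each the difference has no replicate check.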

How the results depend on the processing

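No paired analysis was possible because with 1 library each nothing shares a number within a group, and leaving out a replicate was not possible either. The depth limits genes of few UMIs, such as Cdkn2a and Lif. Limits of 60000 UMIs per cell, median-of-ratios scaling and leaving out cells highest in Dbp and Per3 moved no count of genes by over 1.5 times and no share or reporter ratio out of its reported 95% interval. By these limits 76 of the counts, shares and reporter ratios recomputed stayed and 56 moved. Of the single-gene log2 ratios 973 stayed inside their reported interval, 747 moved out of it and 22 whose interval was clear of 0 changed sign, and among the 973 and 747 a further 14 changed sign. The cause of these moves was not tested.

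Ranking each library on its own gave shares of 20.0% and 20.0%, with 5 genes higher and 4 lower than in inner cells, 42 higher and 57 lower than in mid-lobular cells, 0 highest in the layer, 157 higher and 162 lower in Tom+ members, and a tdTomato log2 ratio of 3.49. It kept 42.1% of the Tom- and 27.8% of the Tom+ members of the layer. The Tom+ over Tom- log2 ratios that changed sign were then Slc1a2 2.45, Rhbg 1.99, Lgr5 1.59, Axin2 1.41, Lhpp 1.24, Tbx3 0.97, Notum 0.84, Znrf3 0.59, Cyp2c29 0.58 and Cyp8b1 -0.66. As the Tom+ band then lies nearer to the vein than the Tom- band, these ratios mix position with label. Over inner cells in the Tom- library Adam11 was at -0.035 and Nr1i3 at -0.037, and over mid-lobular cells in the Tom+ library Adam11 was at -0.081, Cyp2b10 at -0.15 and Igfbp2 at -0.17.

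A score from thinned cells gave a Tom- share of 12.2%, 3 genes higher and 5 lower than in inner cells, 5 lower in Tom+ members and a tdTomato ratio of 3.17. It kept 65.0% of the Tom- and 66.1% of the Tom+ members of the layer. Tom+ over Tom- ratios were then 0.053 for Lgr5, 0.076 for Lhpp, 0.30 for Rhbg, 0.20 for Slc1a2 and 0.032 for Znrf3, and Nr1i3 over inner cells was -0.041 and -0.020.

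Without Glul in the score, 4 genes were lower than in inner cells and 0 highest in the layer. The 75th to 85th percentile gave shares of 6.65% and 15.1%, 0 genes highest in the layer, 23 higher and 5 lower in Tom+ members and a tdTomato ratio of 3.16. Cells with no UMI of Ptprc, Pecam1 and Dcn gave 18 genes lower than in inner cells, 7 lower in Tom+ members and a tdTomato ratio of 3.04. At least 3000 genes per cell left 7 lower than in inner cells. Mid-lobular cells of the 50th to 70th percentile gave 49 genes higher and 0 highest in the layer.

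With no CPM minimum, 165 genes were higher and 36 lower than in inner cells, 232 higher and 963 lower than in mid-lobular cells, 11 highest in the layer, and 342 higher and 295 lower in Tom+ members. At 50 CPM or more these counts were 9, 6, 58, 44, 0, 4 and 0 in the same order. At 2-fold, 2 genes were higher and 0 lower than in inner cells, 23 higher and 37 lower than in mid-lobular cells, and 3 higher and 1 lower in Tom+ members. Means over cells gave 5 genes lower than in inner cells, 194 lower than in mid-lobular cells, 2 highest in the layer and a tdTomato ratio of 3.05. Cells of at least 20000 UMIs in all bands, chosen after seeing the data, gave a Tom- share of 17.4%, 67 genes lower than in mid-lobular cells and a tdTomato ratio of 3.16.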

Other observations

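The lists of injury, interferon response, acute phase and endoplasmic reticulum stress hold further values in the layer that are not given above. Of 11 injury and fetal genes, 4 reached the minimum level, and all 4 were higher in Tom+ than in Tom- members in value, none by 1.5-fold (median log2 ratio 0.24), against 4419 of 7897 genes higher over all compared. Afp and Gpc3, given above, were under that level and higher in Tom+ members by more than 1.5-fold. Krt8, a keratin of simple epithelia, was at 173 and 206 CPM, its partner Krt18 at 88.2 and 98.7 CPM, and Anxa5, an annexin that binds phosphatidylserine, at 65.9 and 77.2 CPM. Of 9 interferon response genes compared, 8 were lower in Tom+ members in value, again none by 1.5-fold (median -0.14), against 3478 of 7897 over all genes. Irf7, a transcription factor of the interferon response, was at 136 and 110 CPM, Bst2, an antiviral membrane protein, at 618 and 542 CPM, and Isg15, a ubiquitin-like protein, at 56.2 and 50.9 CPM. The macrophage markers, at 295 and 243 CPM, were lower in Tom+ members too, and their part in these values was not tested.

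Among acute phase proteins, all 9 were higher in the layer than in inner cells in both libraries in value (medians 0.12 and 0.15), against 2372 of 7894 over all genes. Saa1, serum amyloid A, was at 212 and 224 CPM in the layer and 149 and 174 CPM in inner cells. Among the 12 genes of endoplasmic reticulum stress, 9 were lower than in mid-lobular cells in value in both libraries, against 1749 of 7937 over all genes. Herpud1, a part of the degradation machinery of the endoplasmic reticulum, was at 576 and 548 CPM against 710 and 641 CPM, and the chaperone Hspa5 at 117 and 123 CPM against 147 and 151 CPM.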
